A study of Brassica napus and Camelina sativa and Thlaspi arvense with 24 samples.

Results

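The genes described here are those of *B. napus* whose transcripts were present in true leaves and nearly absent from cotyledons in both lines studied. A gene was taken when it had at least 5 TPM in all 6 leaf libraries and below 1 TPM in all 6 cotyledon libraries of DH12075 and N99 together. TPM is a gene's share of all transcripts in a library after division by transcript length, scaled to the same total in every library. Of 123329 genes, 4 met the rule: BnaC09g024050.3DH, BnaC06g052720.3DH, BnaA08g033320.3DH and BnaA08g016510.3DH. These genes were chosen by their TPM in leaf and cotyledon, so their contrast between the tissues is given as a description with no test. The difference between the lines in leaf was not used by the rule beyond its floor of 5 TPM, and it was tested.

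RNA was sequenced from fully expanded cotyledons and from true leaves of young seedlings of 4 lines. Besides *B. napus* (genotypes DH12075 and N99) these covered *C. sativa* (DH55) and pennycress, and 3 biological replicates of each combination of line and tissue made up the 24 libraries. No treatment or transgene separated the groups, and the 12 *B. napus* libraries were DH12075 cotyledon, DH12075 leaf, N99 cotyledon and N99 leaf. Both *B. napus* lines were quantified against the transcripts of DH12075, so N99 carries the gene IDs of the other line. Whether sequence differences between N99 and these transcripts changed the N99 levels was not tested. The plants behind the replicates are described as biological replicates without further detail, and p-values set a difference between lines against the spread between these libraries.

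Cotyledons are the leaves of the embryo. In oilseeds they are filled with storage reserves during seed maturation and turn green after germination, whereas true leaves are made after germination by the shoot apical meristem. *B. napus* is an allotetraploid that carries an A subgenome related to *B. rapa* and a C subgenome related to *B. oleracea*, so many of its genes have a counterpart copy (homeolog) on the other subgenome. The letter and the digits after Bna in an ID give the subgenome and the chromosome, and the number that follows increases along the chromosome. The IDs are not paired with names in the tables, and the gene table of the Da-Ae reference holds 0 of the *B. napus* IDs. A search for *A. thaliana* counterparts used the part of the study's ortholog table read here, 1938 *A. thaliana* genes, as a key. It paired 194 of these genes with a single ID but paired 0 of the 4 genes, alone or in sums of up to 3 IDs. The 4 genes are therefore given by ID with no function, and BnaA08g033320.3DH lies between an ID paired with AT1G13310, 25 IDs before it, and an ID paired with AT1G12070, 47 IDs after it.

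The rule selected a small set. In leaf, 13167 genes had at least 5 TPM in all 6 libraries, and 74718 genes were below 1 TPM in all 6 cotyledon libraries. The 4 genes were 0.0304% of the 13167. The reverse rule, at least 5 TPM in all cotyledon libraries and below 1 TPM in all leaf libraries of both lines, also found 4 genes. Applied to the lines separately, the leaf rule found 52 genes in DH12075, which was 0.311% of its 16700 genes of at least 5 TPM in leaf, and 12 genes in N99, which was 0.0696% of 17237. The reverse rule found more in each line, 91 genes in DH12075 and 28 in N99. In the other species the leaf rule found 6 genes in DH55, 0.0362% of 16566, and 17 in pennycress, 0.157% of 10839. The reverse rule found 31 and 23 genes there.

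BnaC09g024050.3DH had the highest leaf level of the 4 genes. In DH12075 leaf its replicates were 105, 102 and 94.3 TPM, with a mean of 100.5 ± 5.51 TPM (SD, n = 3), above 90.0% of the genes of at least 5 TPM in leaf. In N99 leaf they were 14.1, 18.0 and 8.55 TPM, with a mean of 13.5 ± 4.73 TPM (SD, n = 3), above 40.8% of those genes. The lines were far apart, since the highest N99 leaf library was well below the lowest DH12075 leaf library. In cotyledons the gene had 0.235, 0.349 and 0.217 TPM in DH12075 and 0.0204, 0.0181 and 0.199 TPM in N99. The mean leaf level was 377 times the mean cotyledon level in DH12075 and 171 times in N99, and the lowest leaf library exceeded the highest cotyledon library 270.4 times in DH12075 and 42.9 times in N99. Both N99 ratios rest largely on N99 cotyledon replicate 3, which stood well above the other N99 cotyledon libraries. No library of either line fell between 0.349 and 8.55 TPM, the widest gap between the tissues among the 4 genes.

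BnaC06g052720.3DH was the most even of the 4 genes between replicates in leaf. It had 34.6, 37.1 and 36.6 TPM in DH12075 leaf, with a mean of 36.1 ± 1.32 TPM (SD, n = 3), and 7.52, 7.54 and 7.38 TPM in N99 leaf, with a mean of 7.48 ± 0.0859 TPM (SD, n = 3). The leaf libraries of the lines did not overlap, and the coefficient of variation was 3.64% in DH12075 and 1.15% in N99. Cotyledon values were 0.529, 0.894 and 0.587 TPM in DH12075 and 0.356, 0.0859 and 0.620 TPM in N99. This gene had the highest cotyledon level of the set, with DH12075 cotyledon replicate 2 the library nearest to the limit of 1 TPM. The mean leaf level was 53.9 times that of cotyledons in DH12075 and 21.1 times in N99.

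BnaA08g033320.3DH was the most variable in leaf. Its replicates were 21.3, 19.5 and 7.58 TPM in DH12075 leaf, with a mean of 16.1 ± 7.46 TPM (SD, n = 3), and 6.61, 12.6 and 6.33 TPM in N99 leaf, with a mean of 8.51 ± 3.54 TPM (SD, n = 3). DH12075 leaf replicate 3 was within the range of N99, so the lines overlapped. The coefficient of variation was 46.2% in DH12075 and 41.6% in N99. In cotyledons the gene had 0.588, 0 and 0.576 TPM in DH12075 and 0.542, 0.257 and 0.394 TPM in N99, and these values overlapped between the lines. The mean leaf level was 41.6 times that of cotyledons in DH12075 and 21.4 times in N99.

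BnaA08g016510.3DH had the lowest mean leaf level, with 14.8, 11.9 and 9.84 TPM in DH12075 leaf (mean 12.2 ± 2.51 TPM, SD, n = 3) and 6.36, 7.68 and 6.17 TPM in N99 leaf (mean 6.74 ± 0.823 TPM, SD, n = 3). All DH12075 leaf libraries were above all N99 leaf libraries, although the gap was narrower than for the C subgenome genes. Cotyledon values were 0.0374, 0 and 0.0878 TPM in DH12075 and 0.0397, 0.0460 and 0.810 TPM in N99. N99 cotyledon replicate 3 thus stood above the other 5 cotyledon libraries. The mean leaf level was 292 times that of cotyledons in DH12075 but 22.6 times in N99, and the N99 value rests largely on that replicate. The DH12075 value is also uncertain, because it divides by a mean near 0, 0.0417 TPM.

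**Figure D1:**
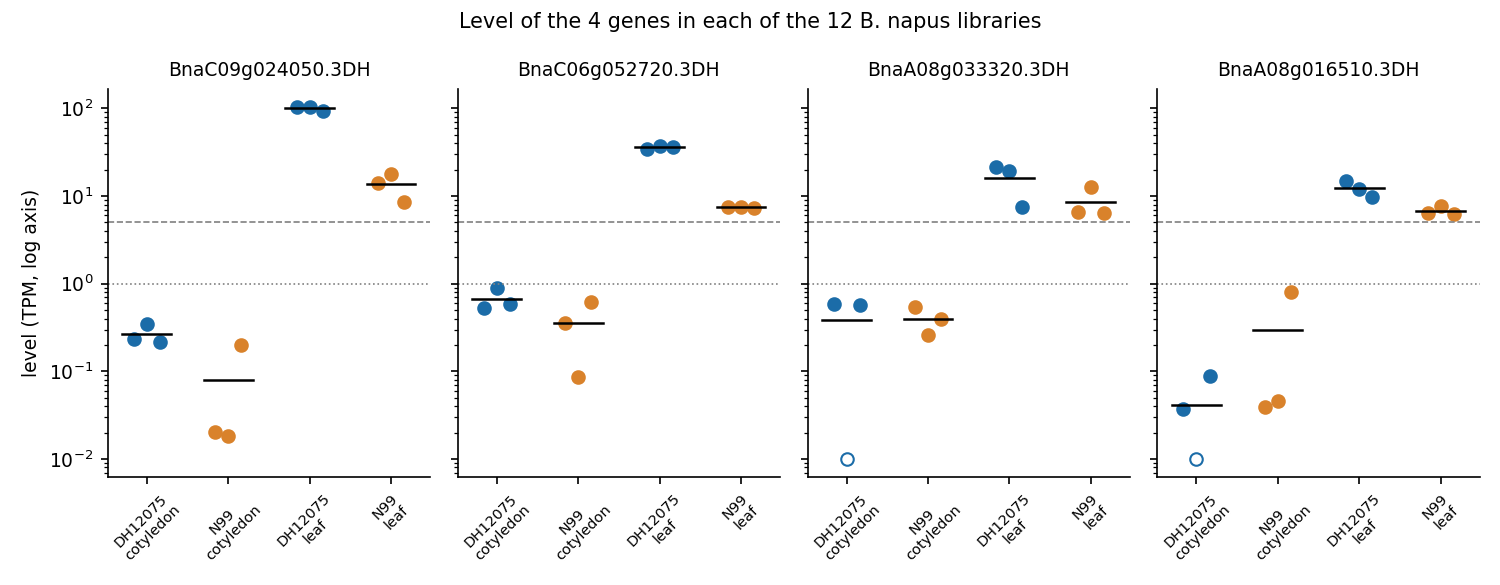
Level of each of the 4 genes (TPM, log axis) in the 3 replicates of each line and tissue, with bars at the means; the dashed line is the limit of 5 TPM in leaf, the dotted line the limit of 1 TPM in cotyledons, and open circles at the foot of the axis are values of 0. The leaf points of BnaC09g024050.3DH separate widely by line (94.3 to 105 TPM in DH12075 against 8.55 to 18.0 TPM in N99), whereas those of BnaA08g033320.3DH overlap.

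The order of the genes was not the same in every leaf library. TPM are per transcript length, so levels can be compared between genes. BnaC09g024050.3DH was the highest in all 6 leaf libraries and BnaC06g052720.3DH came next in 5 of them, the exception being N99 leaf replicate 2, where it was the lowest. The range across the genes was wide in DH12075, with a ratio of highest to lowest of 7.06, 8.60 and 12.4 in replicates 1 to 3, and narrow in N99, with ratios of 2.22, 2.38 and 1.39. In N99 leaf, BnaC06g052720.3DH, BnaA08g033320.3DH and BnaA08g016510.3DH had means between 6.74 and 8.51 TPM and lay above 10.99%, 17.3% and 6.48% of the genes of at least 5 TPM in leaf, close to the limit of the rule.

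Some leaf libraries were high or low for several of the genes together. N99 leaf replicate 2 was the highest of its group for 4 of the 4 genes and replicate 3 the lowest for 4 of the 4. For BnaC06g052720.3DH this order rests on small differences, with 7.52, 7.54 and 7.38 TPM in N99 leaf replicates 1 to 3. Over all 13167 genes of at least 5 TPM in leaf, replicate 2 was the highest for 34.4% and replicate 3 the lowest for 28.3%. DH12075 leaf replicate 3 was the lowest of its group for 3 of the 4 genes and for 46.8% of the 13167. Among the cotyledon libraries, N99 cotyledon replicate 2 stood apart, since its 10 most abundant genes held 37.1% of all TPM, against 7.98% to 11.9% in the other 11 libraries, and it was the lowest of its group for 3 of the 4 genes and for 86.4% of the 13167. The rule without this library found the same 4 genes, so this library alone kept no gene out of the set. Leaving a library out can only add genes. Whether the low values of this library let genes pass was therefore not tested. N99 cotyledon replicate 3 was the highest of its group for 3 of the 4 genes and for 42.6% of the 13167.

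To ask whether the 4 genes differed between the genotypes in leaf, N99 was compared with DH12075 over the 6 leaf libraries with limma on log2(TPM + 1), for the 42007 genes that averaged at least 1 TPM, with Benjamini-Hochberg adjustment over all of them. At an adjusted p under 0.05, 3 of the 4 genes were lower in N99 and 0 were higher. In the background, 23.4% of all genes tested and 22.1% of the 13167 genes of at least 5 TPM in leaf were lower in N99 by the same call. A further 10210 of all genes and 2355 of the 13167 were higher. The median difference was -1.46 for the 4 genes, against 0.014 for all genes tested and -0.026 for the 13167, on the log2(TPM + 1) scale.

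The 2 genes of the C subgenome had the largest differences. BnaC09g024050.3DH was lower in N99 by a log2 difference of -2.86 (SE 0.25, limma adjusted p = 0.00012, all 3 N99 libraries below all 3 of DH12075), and its mean in DH12075 was 7.42 times that in N99. BnaC06g052720.3DH differed by -2.13 (SE 0.10, limma adjusted p = 9.57e-06, all 3 N99 libraries below all 3 of DH12075), with a ratio of means of 4.83. Of the 13167 genes of at least 5 TPM in leaf, 0.509% had a lower difference than the first and 1.37% a lower difference than the second, so both lay at the DH12075 end of the distribution.

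The 2 genes of chromosome A08 had differences of similar size to each other and of unequal precision. BnaA08g016510.3DH was lower in N99 by -0.76 (SE 0.17, limma adjusted p = 0.00931, all 3 N99 libraries below all 3 of DH12075), with a ratio of means of 1.81. BnaA08g033320.3DH differed by -0.79 (SE 0.42, limma adjusted p = 0.161) and did not pass the threshold; its 95% interval ran from -1.78 to 0.20. DH12075 leaf replicate 3, the library in which the gene was lowest for that line, decided this call: without it the difference was -1.23 with an adjusted p of 0.0169. Of the 13167 genes, 13.1% and 12.3% had lower differences than BnaA08g016510.3DH and BnaA08g033320.3DH. By absence of overlap alone, 3 of the 4 genes had all N99 leaf libraries below all DH12075 leaf libraries, which was true of 28.9% of the 13167.

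**Figure D2:**
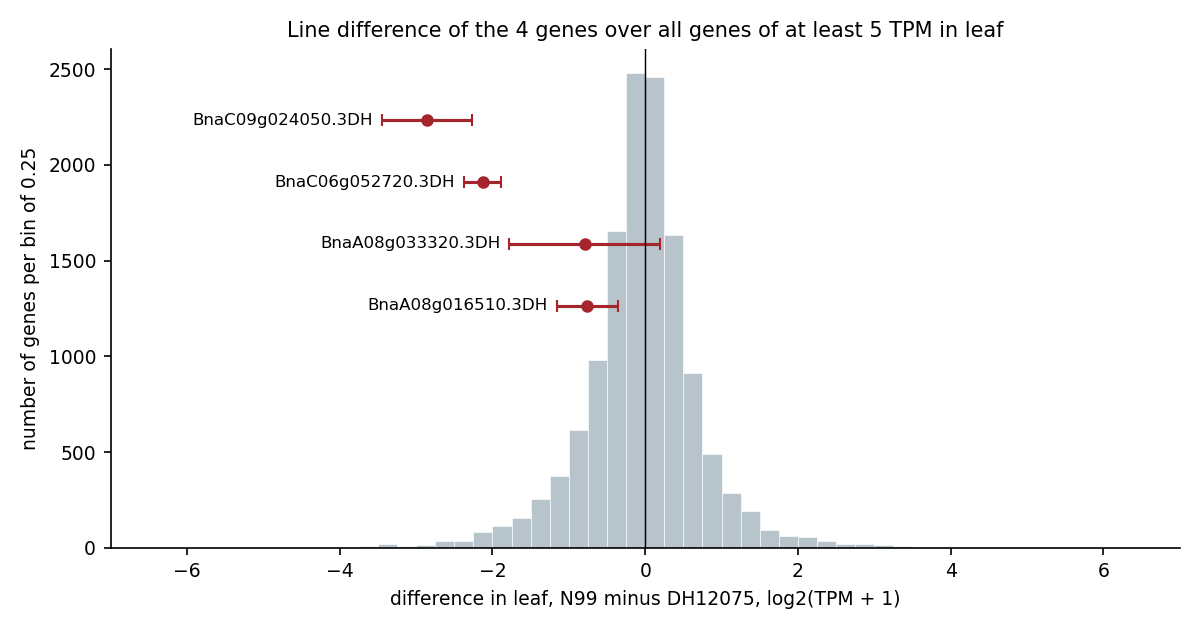
Difference in leaf between N99 and DH12075 (log2(TPM + 1), horizontal axis) for the 4 genes, as points with 95% intervals placed at arbitrary heights, over the histogram of the 13167 genes of at least 5 TPM in leaf (number of genes per bin, vertical axis). BnaC09g024050.3DH (-2.86) and BnaC06g052720.3DH (-2.13) lie in the lower tail, and the interval of BnaA08g033320.3DH crosses 0.

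The scaling of the libraries moved the background but not these calls. After quantile normalization, the genes of at least 5 TPM in leaf split into 2706 higher and 2702 lower in N99, where the deposited TPM gave 2355 and 2915. The 3 genes remained lower in N99 under each of the 11 alternative fits, including each leaf replicate left out in turn, whereas BnaA08g033320.3DH passed in 1 of them, without DH12075 leaf replicate 3. The 3 calls were not equally firm. For BnaA08g016510.3DH the limma adjusted p rose to 0.0461 with no filter on low values. The highest limma adjusted p was 0.00375 for BnaC09g024050.3DH and 0.000396 for BnaC06g052720.3DH.

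**Figure D3:**
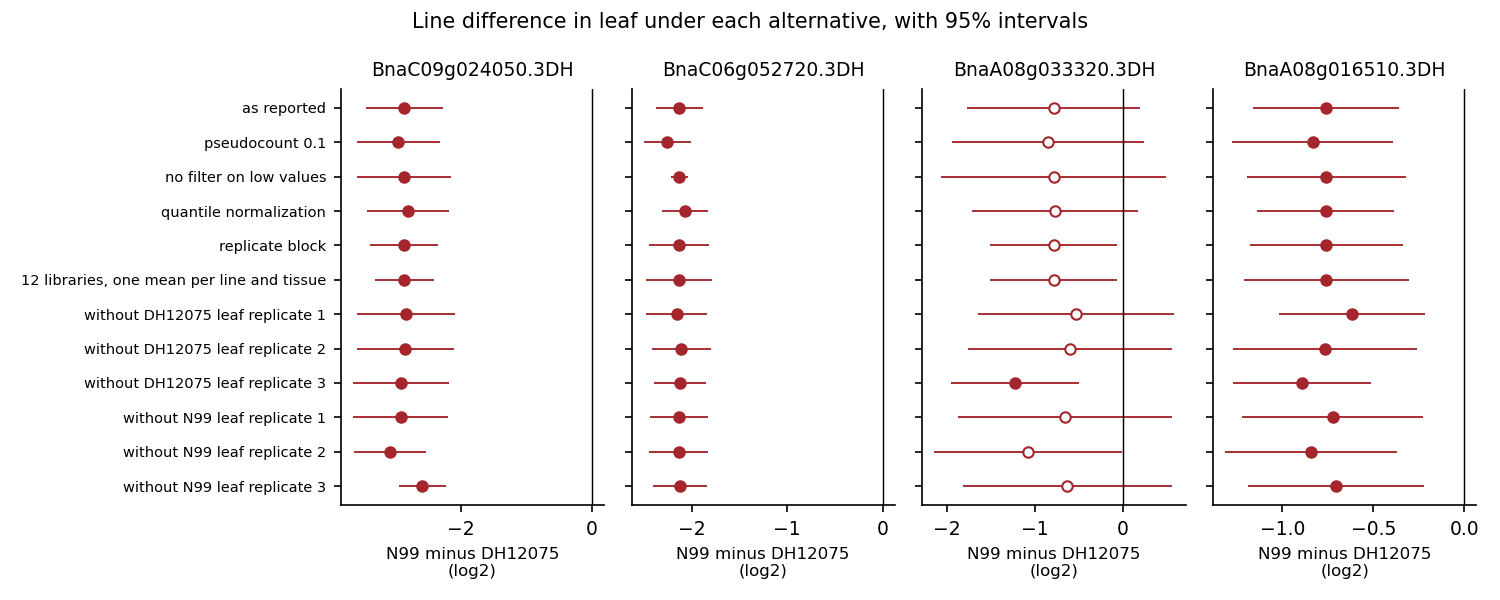
Difference in leaf between N99 and DH12075 (log2 scale, horizontal axes with separate ranges) for each gene, as reported and under the 11 alternative fits (vertical axis), with 95% intervals; filled points have an adjusted p under 0.05 and open points do not. All points lie below 0, and for BnaA08g033320.3DH the only filled point is the fit without DH12075 leaf replicate 3.

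The set held equal numbers from the subgenomes. Of the 4 genes, 2 were on the A subgenome and 2 on the C subgenome (exact 95% binomial interval of the A share 6.76% to 93.2%), and 0 were on unplaced sequence. Among the 13167 genes of at least 5 TPM in leaf, 49.4% were A, 47.5% C and 3.01% unplaced, and among all 123329 genes the shares were 38.7%, 51.9% and 9.38%. The 4 genes were taken by a rule and not drawn at random, so the interval serves as a description only. With 4 genes it spans nearly the whole range, and the shares were not tested against either background.

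The 4 genes did not lie beside each other. None of the 10 nearest IDs of any of them, 5 on each side, was another member, and the 2 genes on A08 were 1649 IDs apart. Of the 10 neighbours of BnaC09g024050.3DH, 9 were below 1 TPM in all 12 libraries, as were 57.7% of all genes. The gene before it, BnaC09g024040.3DH, had 0.434 ± 0.108 TPM in DH12075 leaf and 0.393 ± 0.0751 TPM in N99 leaf (SD, n = 3 each), and the gene after it, BnaC09g024060.3DH, was listed at 0 throughout. BnaA08g016510.3DH had 6 such neighbours of 10, and BnaC06g052720.3DH and BnaA08g033320.3DH had 3 each.

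The adjacent genes with the highest levels were present in both tissues. BnaC06g052730.3DH, next to BnaC06g052720.3DH, had 29.0 ± 2.97 TPM in DH12075 leaf and 18.2 ± 2.02 TPM in DH12075 cotyledon (SD, n = 3 each), and 24.8 ± 4.07 and 16.2 ± 1.69 TPM in N99. BnaA08g033330.3DH, next to BnaA08g033320.3DH, had 14.8 ± 1.62 TPM in DH12075 leaf and 22.8 ± 1.304 TPM in DH12075 cotyledon (SD, n = 3 each), and 17.9 ± 0.347 and 17.4 ± 4.45 TPM in N99. The leaf libraries of the first lay above its cotyledon libraries in both lines, those of the second lay below them in DH12075 and overlapped with them in N99, and both genes were well above 1 TPM in cotyledons, where the 4 genes were not. Of the other adjacent genes, BnaA08g033310.3DH had 1.95 TPM in leaf and 2.54 TPM in cotyledon of DH12075 and 2.97 and 1.49 TPM in N99, and BnaA08g016500.3DH had 0.707 and 1.45 TPM in DH12075 and 4.64 and 2.79 TPM in N99 (means, n = 3 each).

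The expressed neighbours were counted by whether their leaf and cotyledon libraries overlapped. Of the 7 neighbours of BnaC06g052720.3DH with at least 1 TPM in a library, 1 had all leaf libraries above all cotyledon libraries in DH12075 and 1 had them below, while in N99 the counts were 2 and 1. Of the 7 such neighbours of BnaA08g033320.3DH, 1 was above and 3 were below in DH12075, against 3 and 0 in N99. Of the 4 of BnaA08g016510.3DH, 2 were above and 1 below in DH12075, against 2 and 0 in N99, and the 1 of BnaC09g024050.3DH was above in N99 and overlapped in DH12075. Among all 52185 genes of at least 1 TPM in a library, 23.4% were above and 33% below in DH12075, and 24% and 17.6% in N99. With so few neighbours these counts were not tested against those shares. The nearest gene that passed the rule in at least 1 line was 46 IDs from BnaA08g033320.3DH (BnaA08g033790.3DH, which passed in N99), 138 IDs from BnaC06g052720.3DH and 4860 IDs from BnaC09g024050.3DH.

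Genes that met the limits in DH12075 alone failed in N99 most often through their leaf level only, though many failed through cotyledon. Of the 52 genes that passed in DH12075, 4 also passed in N99, 23 failed only because a leaf library of N99 was below 5 TPM, 13 only because a cotyledon library of N99 was at 1 TPM or above, and 12 for both reasons. In 7 of the 52 all N99 leaf libraries were below 1 TPM. As background for the leaf limit, 16700 genes had at least 5 TPM in all DH12075 leaf libraries and 17237 in all N99 leaf libraries. Of these, 13167 met it in both lines. No background was counted for the cotyledon limit or for leaf levels below 1 TPM. Of the 12 genes that passed in N99, 4 also passed in DH12075, 2 failed by leaf alone, 2 by cotyledon alone and 4 by both. The 4 shared genes were thus 7.69% of the DH12075 list and 33.3% of the N99 list. By subgenome, the DH12075 list held 21 A, 25 C and 6 unplaced genes, and the N99 list 10 A and 2 C genes. The A share was 40.4% in the DH12075 list and 83.3% in the N99 list. It was 38.7% among all genes and 49.4% among the genes of at least 5 TPM in all 6 leaf libraries. These differences were not tested.

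**Figure D4:**
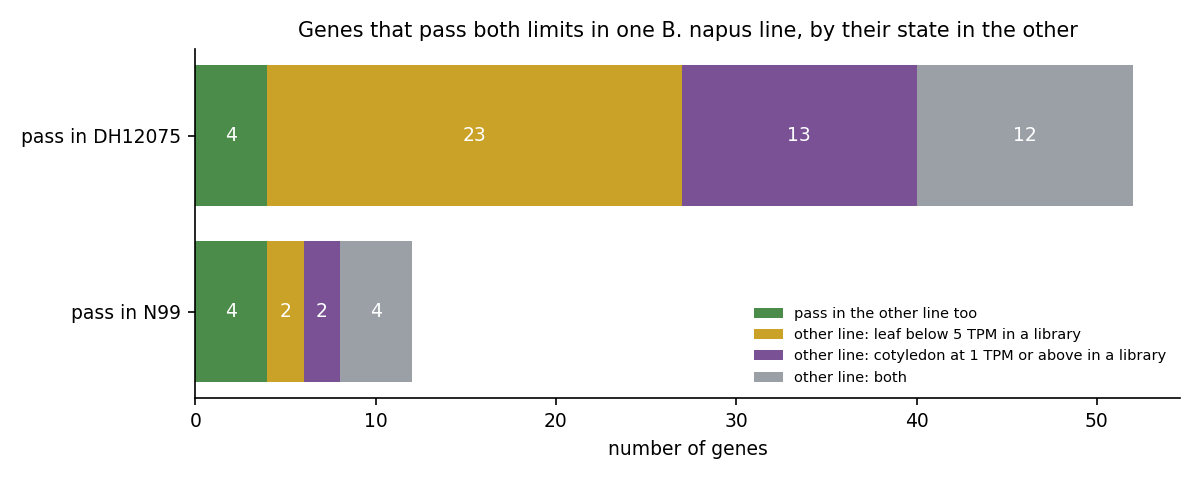
Number of genes that passed both limits in DH12075 (52) or in N99 (12), divided by their state in the other line: passing there too (4), leaf below 5 TPM in at least 1 library, cotyledon at 1 TPM or above in at least 1 library, or both. The largest segment is the 23 genes of DH12075 that failed in N99 through leaf alone.

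The genes nearest to the limits show how the set depends on them. Just inside the leaf limit were BnaA08g016510.3DH, with a lowest leaf library of 6.17 TPM, and BnaA08g033320.3DH, with 6.33 TPM, both in N99 leaf replicate 3. Just outside were BnaA08g026860.3DH, with 3.997 TPM in DH12075 leaf replicate 3, and BnaC07g031980.3DH, with 3.89 TPM in N99 leaf replicate 1. Just inside the cotyledon limit were BnaC06g052720.3DH at 0.894 TPM and BnaA08g016510.3DH at 0.810 TPM. Just outside were BnaC04g073010.3DH, with 1.27 TPM in N99 cotyledon replicate 1, and BnaA08g033790.3DH, with 1.53 TPM in DH12075 cotyledon replicate 2. N99 cotyledon replicate 1 mattered most among single libraries, since without it 8 genes met the rule. Leaving a library out can add genes but cannot remove any of the 4 genes. None of the 4 genes would remain at a limit of 10 TPM in leaf and 0.5 TPM in cotyledons, which no gene met.

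With the leaf limit lowered to 2 TPM, 31 genes met the rule, the 4 genes included, of which 19 were A and 12 were C. In leaf, 11 of the 31 were lower in N99 and 0 were higher by the limma call (adjusted p under 0.05). Without the 4 genes, 8 of the remaining 27 were lower (29.6%), 0 were higher and 19 did not pass. Among the 24219 genes of at least 2 TPM in all 6 leaf libraries, 21.7% were lower and 20.1% higher. The median difference of the 27 was -0.39, with a range from -3.87 to 0.76, against a median of -0.0035 over the 24219.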

How the data were processed

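Total RNA was extracted from cotyledons and leaves, and the labels name a TruSeq library guide whereas the methods name Illumina Stranded mRNA Prep. Reads were trimmed (Trimmomatic 0.32) and assigned to transcripts (Salmon 1.10.0) by the authors, who used tximport to reach genes and deposited TPM for each gene and library, without log transformation or pooling, in a table per line. Salmon divides reads among similar transcripts, so levels of near-identical homeologs are uncertain. TPM hold no read numbers, so the depth of each library is unknown and no counting interval was given; replicates are the measure of precision. Samples were grouped by the genotype and tissue in the labels.

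The members and lists were chosen with earlier results of these data known. The lines were compared with limma 3.58.1 (R 4.3.3; lmFit, eBayes with a trend) on log2(TPM + 1), with a mean of at least 1 TPM, Benjamini-Hochberg adjustment and a threshold of 0.05, and the fit was tested on simulated data. Other calculations used Python 3.11.15, pandas 2.3.3, numpy 2.4.6, scipy 1.17.1 and matplotlib 3.10.9. Genes were named by rule: the highest in leaf, the largest line differences, and those nearest to each limit, with neighbours of the members. The gene lists for leaf and cotyledon functions are *A. thaliana* genes, and 0 members could be paired with one. The *A. thaliana* key table came from the study's supplement, of which a part was used, and only its pattern across libraries served for pairing. Alternatives were another pseudocount, no filter, replicate numbers as a block, quantile normalization, a fit over 12 libraries, other limits, rescaling without abundant genes, and each replicate left out.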

Additional observations from a re-analysis of the deposited data

How the results depend on the processing

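The number of genes meeting the rule depended on its limits, with 31 genes at 2 TPM in leaf and below 1 TPM in cotyledons and 0 at 10 and 0.5 TPM. It was 3 after each library was rescaled with its 10 most abundant genes left out, which lost BnaC06g052720.3DH. That rescaling raised the values in every library while the limits stayed at 5 and 1 TPM. The lost gene had 0.894 TPM in DH12075 cotyledon replicate 2 before it, just below the limit. The number was 4 to 8 with each replicate left out, the 8 being without N99 cotyledon replicate 1, which added BnaA04g007950.3DH, BnaC04g045120.3DH, BnaC04g073010.3DH and BnaC07g049060.3DH. Leaving a replicate out only relaxes the rule, so the number could not fall below 4. The share on the A subgenome was 37.5% to 60.0% with each replicate left out and 61.3% at the leaf limit of 2 TPM. The share of genes next to another was 0% under each alternative run, within 5 IDs included. At 10 and 0.5 TPM no gene was left, so neither share could be given. The members past the threshold numbered 3 under each alternative fit except 4 without DH12075 leaf replicate 3, and 2 with an absolute log2 difference of at least 1. All genes past the threshold numbered 20054, and 15764 to 20590 under the alternatives.

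Same-numbered leaf replicates of the lines showed no strong shared deviation (correlations of -0.084, 0.102 and -0.024 across genes). Differently numbered ones ran from -0.178 to 0.192. With 3 libraries per group, these values cannot show whether same-numbered replicates were grown or processed together. With the replicate number as a block, 3 members and 18344 of all genes passed, and BnaA08g033320.3DH had an adjusted p of 0.0756. Over its 11 alternatives this gene's adjusted p ran from 0.0169 to 0.474. Comparisons of leaf with cotyledon in *C. sativa* and pennycress, and their alternatives, were not run because none of the 4 genes could be paired with an *A. thaliana* gene. The precision rests on 3 libraries per group.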

Other observations

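The most abundant genes that met the limits in a single line, chosen after their values were seen, missed the rule in different ways. BnaC07g061800.3DH had 124, 94.3 and 76.1 TPM in DH12075 leaf and 71.7, 53.6 and 58.4 TPM in N99 leaf, more than all 4 shared genes in N99, but it reached 3.55 TPM in N99 cotyledon replicate 1 and 1.67 TPM in replicate 3. BnaA09g019450.3DH had 83.3, 83.7 and 67.1 TPM in DH12075 leaf and 4.78, 5.55 and 3.12 TPM in N99 leaf, with at most 0.119 TPM in any cotyledon library, so that it missed the rule only through N99 leaf replicates 1 and 3. Its leaf values lay below those of BnaC09g024050.3DH in both lines, without overlap. Whether the genes of A09 and C09 are homeologs was not tested. In the N99 list, BnaA10g020640.3DH had 10.5, 44.4 and 19.3 TPM in N99 leaf and 54.2, 45.2 and 21.7 TPM in DH12075 leaf, and failed through DH12075 cotyledons at 1.65, 2.81 and 3.92 TPM.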
